A study of Mus musculus with 9 samples.

Results

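Dppa2, Ott, Xlr, Prkg2 and Dynap are 5 genes of the 17097 that the mouse array could name, and they were chosen by their measured values: high in bladders carrying an MB49 tumour and near the bottom of the scale in healthy bladders given PBS. The difference between those groups is therefore a description of the choice and was not tested. Each gene was read by the probe set (the group of short probes for a transcript) with the highest mean over the 9 arrays. All levels below are the deposited RMA values on the log2 scale, on which a difference of 1 is a doubling.

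The arrays are whole bladders of female C57BL/6J mice, in 2 numbered experiments of 5 and 4 arrays. MB49, a mouse bladder carcinoma line derived from a male mouse, was instilled on day 0 into bladders preconditioned with poly-L-lysine, and tumour bladders were taken on day 12. The agent, alpha1-oleate, pairs a peptide with oleic acid and was instilled on 5 days from day 3 to day 11 at 1.7, 8.5 or 17 mM, and sham tumours received PBS. Experiment 1 holds healthy PBS, sham tumour and each of the 3 doses; experiment 2 holds healthy PBS, sham tumour and bladders labelled healthy and sampled 24 h or 7 d after 17 mM. Healthy PBS and sham tumour thus have 2 arrays, 1 per experiment, and all other groups have 1. The labels do not say whether an array is 1 animal or a pool, and so the spread behind every p-value may in part be technical. In the main fit, which has a term for the experiment, that spread is how far sham minus healthy PBS varied between the 2 experiments. It is moderated by a value pooled over all genes, and is not the spread between bladders of a group. MB49 is a single transplanted line, and no array of MB49 cells alone was analysed here, so restriction of these transcripts to tumour cells was not measured directly.

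Germline genes are kept silent in most adult tissues by DNA methylation and repressor complexes, and tumour cells are known to express some of them out of place. Dppa2, developmental pluripotency associated 2, is a chromatin protein of pluripotent and germ cells that acts with Dppa4. Ott, ovary testis transcribed, belongs to an X-linked multicopy family expressed in the germ line. Xlr, X-linked lymphocyte regulated, belongs to a related multicopy X-linked family of nuclear proteins found in lymphoid and germ cells. Prkg2 is the membrane-bound cGMP-dependent protein kinase, known for ion secretion in the gut and for bone growth, and is no germline gene. Dynap, dynactin associated protein, is a membrane protein described in human cells as a partner of the dynactin complex. Because Ott and Xlr have near-identical copies, their probe sets may read more than the named gene.

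A label is in doubt. The array labelled healthy, 24 h after 17 mM, has no tumour on its label, yet all 5 genes were far above healthy PBS on it. It is called by its label below, the values that rest on it are given apart, and its part in any other value is stated. Array medians ran from 4.42 to 4.45 in experiment 1 and from 4.20 to 4.24 in experiment 2, so levels were compared within an experiment. The uroplakins and the other urothelial markers were high on both healthy PBS arrays (median of 11 genes 11.08 and 10.71).

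Among the chosen genes, upstream sequences were found only for Ott and Xlr in the RefSeq promoter table of build GRCm38.p6, and they are shown for that reason. The 250 bases before the start used in that table lie at chrX:149097702-149097951 on the plus strand for Ott, and at chrX:53797707-53797956 on the minus strand for Xlr. RefSeq's gene table starts Xlr farther upstream, so the last 10 bases of its window lie inside that gene's span. Capitals mark matches, on either strand, to CCAAT (the NF-Y box, read as ATTGG on the other strand), TCCCGC (a core bound by E2F proteins, E2F6 among them) and CACGTG (an E-box).
Ott: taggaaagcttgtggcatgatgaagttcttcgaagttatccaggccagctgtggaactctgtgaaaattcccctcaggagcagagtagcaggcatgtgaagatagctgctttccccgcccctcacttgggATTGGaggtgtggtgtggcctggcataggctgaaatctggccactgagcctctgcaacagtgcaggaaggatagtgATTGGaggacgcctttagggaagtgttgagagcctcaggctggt
Xlr: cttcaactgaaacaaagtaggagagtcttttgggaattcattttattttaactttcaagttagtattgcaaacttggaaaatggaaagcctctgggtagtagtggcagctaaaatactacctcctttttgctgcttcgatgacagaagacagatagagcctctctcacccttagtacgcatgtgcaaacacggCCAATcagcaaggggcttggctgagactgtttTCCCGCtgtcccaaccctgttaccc

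The Ott window held 2 matches to CCAAT and none to the other motifs, with 3 CpG sites and 53.2% G or C. The Xlr window held 1 match to CCAAT and 1 to TCCCGC, with 4 CpG sites and 44.4% G or C. No match overlapped another. Of 32851 promoter windows of the same length, 33.8% held CCAAT, 16.9% held TCCCGC and 6.0% held CACGTG, and the median window held 6 CpG sites. The matches describe these letters only, and binding was not measured.

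The chosen contrast was large in both experiments. Dppa2 (Entrez gene 73703, chromosome 16, probe set 1453223_PM_s_at) stood at 2.66 in healthy PBS and 8.55 in sham tumour of experiment 1, and at 2.72 and 8.15 in experiment 2. Ott (18422, chromosome X, 1427346_PM_at) stood at 2.63 and 8.87, then 2.58 and 8.34. Xlr (22441, chromosome X, 1422011_PM_s_at) stood at 2.59 and 8.50, then 2.53 and 7.56. No healthy PBS array came near a sham tumour array for any of these germline genes.

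Prkg2 (19092, chromosome 5, 1435162_PM_at) stood at 3.31 in healthy PBS and 9.67 in sham tumour of experiment 1, and at 3.21 and 9.31 in experiment 2. Dynap (75577, chromosome 18, 1453275_PM_at) stood at 3.32 and 9.29, then 3.28 and 8.50. Within an experiment the sham tumour was higher by 5.89 to 6.36 in experiment 1 and by 5.03 to 6.10 in experiment 2, and the value was larger in experiment 1 for each of the 5 genes. All 5 ranked among the 26 largest of 17097 such differences in both experiments, with Prkg2 at ranks 3 and 4. Over all genes above the filter 28.6% were called higher in sham tumour by limma, and nothing is read from the members' own count, since they were chosen by this difference. All 5 genes passed the filter (a mean of at least 4.16) only through arrays on which they were high, since 0 of 5 exceeded it in healthy PBS. No detection calls were used, so the folds against healthy bladder rest on values close to the lower end of the scale.

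**Figure D1:**
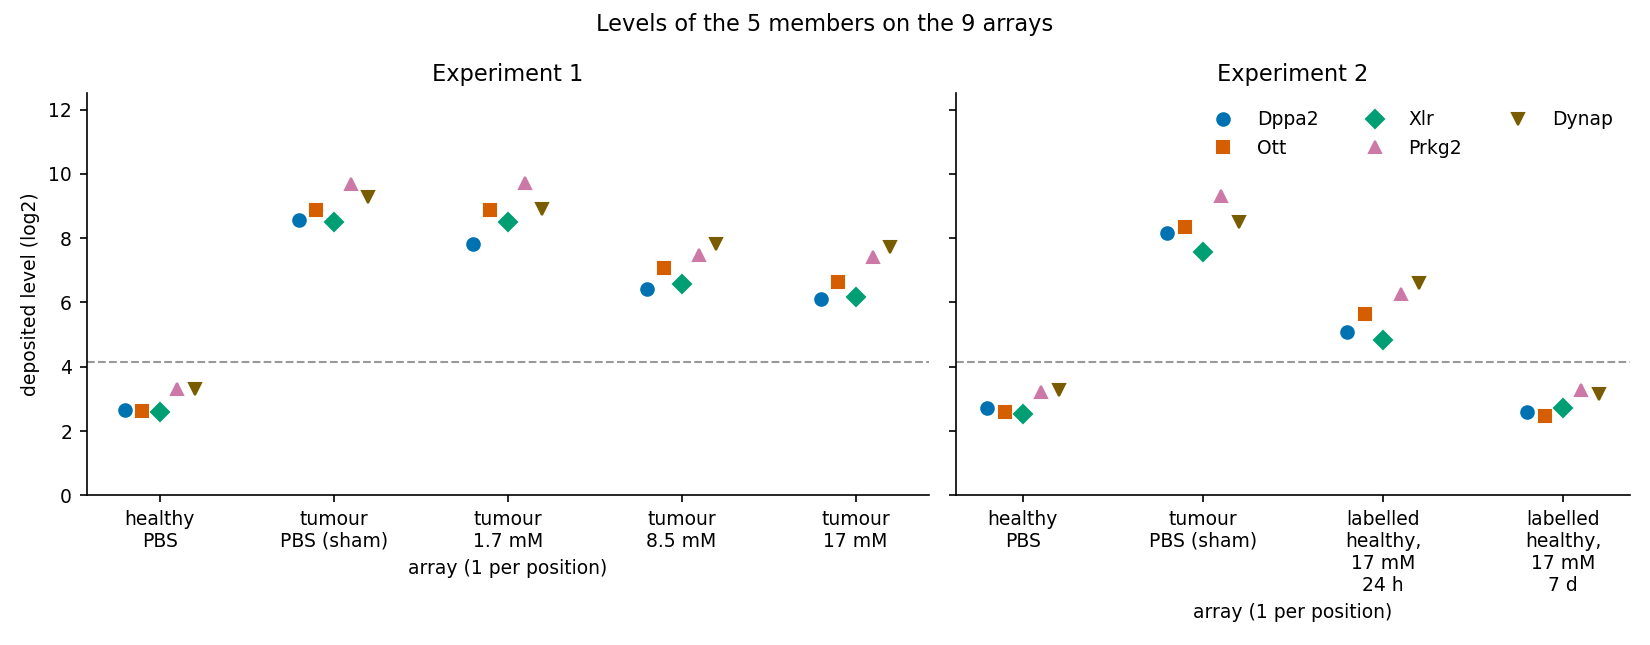
Deposited log2 level of Dppa2, Ott, Xlr, Prkg2 and Dynap (y axis) on each of the 9 arrays (x axis), 1 point per gene and array, with the filter level of 4.16 as a dashed line. Healthy PBS and 7 d arrays lie below the line for every gene, and the 24 h array lies between healthy PBS and sham tumour.

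The other probe sets of these genes were examined next. The second Dppa2 set (1429654_PM_at) read 3.52 in healthy PBS, 7.90 in sham tumour, 7.24 at 1.7 mM, 6.01 at 8.5 mM and 5.43 at 17 mM. In experiment 2 it read 3.54 in healthy PBS, 7.29 in sham tumour, 4.44 at 24 h and 3.74 at 7 d. It ordered the arrays of each experiment as the main set did, apart from healthy PBS and 7 d, which both sets left low. The second Prkg2 set (1435460_PM_at) read 3.89 in healthy PBS, 9.03 in sham tumour, 9.16 at 1.7 mM, 7.13 at 8.5 mM and 7.04 at 17 mM, and 4.13, 8.86, 6.18 at 24 h and 3.99 at 7 d in experiment 2. The third Prkg2 set (1421354_PM_at) disagreed with both. It read 5.79 in healthy PBS, 6.10 in sham tumour, 6.51, 5.74 and 5.59 at rising dose, and 3.10, 3.42, 3.16 and 3.13 in experiment 2, with healthy PBS and sham tumour close together in each. Ott, Xlr and Dynap had 1 set each.

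At the highest dose 4 of the 5 genes fell relative to sham tumour, against 10.6% of the 11969 tested genes that fell in the same limma fit. The sham arrays in this difference are also those on whose high values the members were chosen, which favours a fall, so nothing is read from the count. Dppa2 was at 6.11 at 17 mM and fell by 2.33 (SE 0.20, adjusted p = 0.0182). Ott was at 6.63 and fell by 2.12 (SE 0.21, adjusted p = 0.0197), and Xlr was at 6.16 and fell by 2.12 (SE 0.34, adjusted p = 0.0357). Prkg2 was at 7.42 and fell by 2.18 (SE 0.15, adjusted p = 0.0159). Dynap was at 7.72, with a difference of -1.38 (SE 0.30, adjusted p = 0.0562), which did not pass. Each 17 mM level lay below both sham arrays and above both healthy PBS arrays. In a whole bladder, fewer cells of a type and less RNA per cell cannot be told apart. The call on Xlr was lost without the sham array of experiment 1 (adjusted p = 0.118 against the sham of experiment 2 alone and without the experiment term), where its difference was -1.40.

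At 8.5 mM 3 of 5 genes fell, beside 4.65% of all genes tested. The sham arrays are again those on whose high values the members were chosen, so nothing is read from that count. Dppa2 was at 6.42 and fell by 2.02 (adjusted p = 0.0289), Ott was at 7.08 and fell by 1.67 (adjusted p = 0.0344), and Prkg2 was at 7.48 and fell by 2.12 (adjusted p = 0.0253). Xlr was at 6.57 (difference -1.71, adjusted p = 0.0647) and Dynap at 7.81 (-1.29, adjusted p = 0.0794), and neither passed. The call on Ott did not hold without the experiment term (adjusted p = 0.059), nor in any of the fits that also left out a PBS array.

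At 1.7 mM the levels were 8.88 for Ott, 8.50 for Xlr and 9.71 for Prkg2, and each lay within 0.04 of the sham array of its experiment. Dynap was at 8.90 and Dppa2 at 7.83, lower than that sham array by 0.39 and 0.72. None of the fitted differences (-0.60 for Dppa2 with SE 0.20 and adjusted p = 0.387, and -0.20 to 0.22 for the others) passed, nor did any gene of the array (0%, with 1595 of 11969 genes at an unadjusted p under 0.05 and none of the members among them). Both Dppa2 probe sets were lower at 1.7 mM than in the sham array of that experiment.

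**Figure D2:**
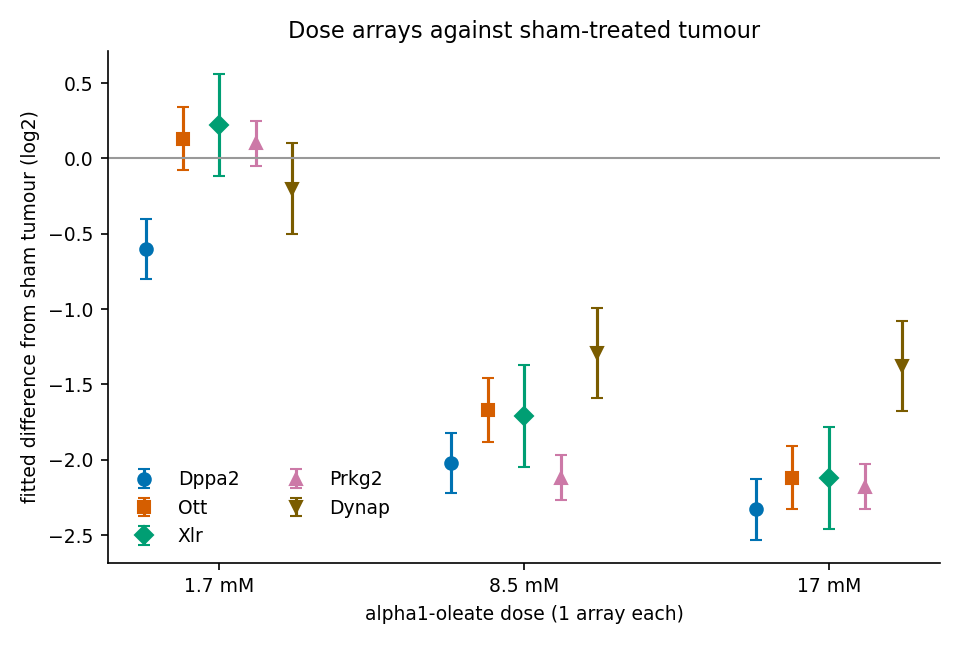
Fitted log2 difference from sham tumour (y axis) for each gene at 1.7, 8.5 and 17 mM (x axis, 1 array per dose), with bars of 1 SE from the limma fit. The points at 1.7 mM lie near 0 except Dppa2 at -0.60, and those at 8.5 and 17 mM lie between -1.29 and -2.33.

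On the linear scale, the part of the sham signal above healthy bladder that was still measured at each dose can be set out within experiment 1. At 17 mM it was 17.0% for Dppa2, 20.1% for Ott, 18.4% for Xlr, 20.0% for Prkg2 and 32.6% for Dynap. At 8.5 mM it was 21.5%, 28.0%, 25.0%, 21.0% and 34.8% in the same order. At 1.7 mM it was 60.0% for Dppa2, 100.7% for Ott, 100.0% for Xlr, 102.8% for Prkg2 and 75.9% for Dynap. The medians were thus 20.0%, 25.0% and 100.0% from the highest dose to the lowest. Dynap kept the largest share at both upper doses, and Dppa2 the smallest at 17 and 1.7 mM, from 1 array each, and differences between genes were not tested. With the probe sets of a gene averaged, Prkg2 kept 28.7% at 17 mM and 31.3% at 8.5 mM, since the discordant set enters that mean.

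Comparisons between doses do not use the sham and healthy PBS arrays named by the choice, but they are not independent of it, since the dose arrays enter the 9-array mean behind the probe set and the filter. Each dose is 1 array and adds nothing to the spread. The SE and p below rest on how sham minus healthy PBS varied between the experiments. For each gene this leaves 1 residual degree of freedom, to which the fit adds 2.23 prior degrees of freedom pooled over all genes. The members were high on the 1.7 mM array and passed the filter through such arrays, which favours a fall from that array. Nothing is therefore read from the members' counts between doses. From 1.7 to 17 mM, Ott fell by 2.25 (SE 0.23, adjusted p = 0.0465) and Prkg2 fell by 2.29 (SE 0.16, adjusted p = 0.0465), so that 2 of 5 fell beside 1.89% of all genes. Dppa2 (-1.72, adjusted p = 0.0505), Xlr (-2.34, adjusted p = 0.0595) and Dynap (-1.18, adjusted p = 0.116) did not pass. Both calls were lost with no filter (adjusted p = 0.0566 for each) and when either healthy PBS array was left out together with the experiment term (adjusted p = 0.0845 for Ott and 0.0783 for Prkg2), while Xlr passed without the experiment term (adjusted p = 0.0366).

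Between 1.7 and 8.5 mM the differences ran from -1.09 for Dynap to -2.23 for Prkg2 and none passed. The lowest adjusted p among the members was 0.0821, for Prkg2. No gene of the array passed as fallen either (0%), although 3101 genes and all 5 members had an unadjusted p under 0.05. Between 8.5 and 17 mM the differences ran from -0.06 for Prkg2 to -0.45 for Ott, with an adjusted p of 0.99 for each (0% of all genes passed as fallen, and 338 genes but no member had an unadjusted p under 0.05).

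In experiment 2 the array labelled healthy, 24 h, lay between healthy PBS and sham tumour for every gene. Dppa2 was at 5.08, Ott at 5.65 and Xlr at 4.83 on it, against 2.53 to 2.72 in healthy PBS of that experiment. Prkg2 was at 6.27 and Dynap at 6.61, against 3.21 and 3.28. The array was thus higher than healthy PBS of its experiment by 2.30 for Xlr, 2.36 for Dppa2, 3.06 for Prkg2, 3.07 for Ott and 3.33 for Dynap. Among 17097 genes these differences ranked from 22 (Dynap) to 98 (Xlr) from the highest.

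The healthy PBS arrays in the next difference are also those on whose low values the members were chosen. The fitted differences from healthy PBS were 2.48 to 3.52 with adjusted p from 0.0568 to 0.121, and none passed in a fit that called no gene as risen (0%), although 2503 genes and all 5 members had an unadjusted p under 0.05. Without the experiment term all 5 passed, but that fit gave every gene the same spread (infinite prior degrees of freedom). It also ignored that the experiments had been normalized apart, so nothing is read from that count. Against sham tumour all 5 fell on the 24 h array, with differences from -2.08 (Dynap, SE 0.30, adjusted p = 0.0268) to -3.18 (Dppa2, SE 0.20, adjusted p = 0.0142), beside 13.6% of all genes. These are the sham arrays on whose high values the members were chosen, so nothing is read from that count. Relative to the sham signal of experiment 2, the 24 h array held 9.8% for Dppa2, 10.9% for Prkg2, 12.4% for Xlr, 13.9% for Ott and 25.0% for Dynap, again with the largest share for Dynap.

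The array labelled healthy, 7 d, was at the level of healthy PBS. It read 2.59 for Dppa2, 2.48 for Ott, 2.71 for Xlr, 3.29 for Prkg2 and 3.16 for Dynap, which is within 0.18 of healthy PBS of the same experiment for every gene. None of the fitted differences (-0.02 to 0.40) passed, and no gene of the array rose (0%, with 1096 at an unadjusted p under 0.05). The 24 h and 7 d arrays, which the choice did not name but which enter the same 9-array mean, differed by 2.12 for Xlr to 3.45 for Dynap. None of these passed (adjusted p from 0.0914 to 0.135, 0% of genes risen, 2660 genes and all 5 members at an unadjusted p under 0.05). In the fit without the experiment term, with the same spread for every gene, 4 of 5 passed, and nothing is read from that count either.

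The members were then set beside the other genes with a similar gain. In all, 73 genes were at least 16-fold higher in sham tumour than in healthy PBS in both experiments, the 5 members among them. At 17 mM the median difference from the sham array over these genes was -1.83 (from -2.25 at the 10th percentile to -1.25 at the 90th). Dppa2 (-2.44) had 3 of the 73 genes below it, Xlr (-2.34) had 5, Prkg2 (-2.25) had 7 and Ott (-2.24) had 10, whereas Dynap (-1.57) had 57. At 1.7 mM the median was -0.30, with Prkg2, Ott and Xlr above 68, 65 and 64 of the genes, Dynap above 27 and Dppa2 above 10. On the 24 h array the median difference from healthy PBS was 2.85, with the members from 2.30 to 3.33. Among the 28 genes at least 32-fold higher in both experiments, which include the 5 members, that median was 3.36. All 5 members lay below it. These ranks share the sham arrays with the choice of the genes.

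**Figure D3:**
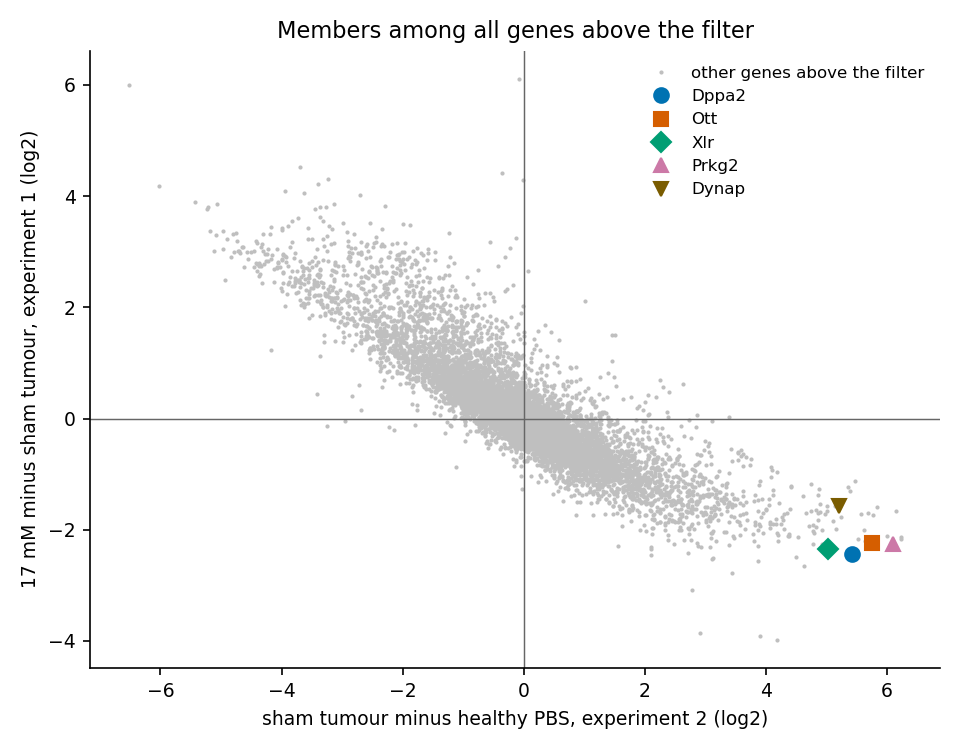
Each of the 11969 genes above the filter by its log2 difference of sham tumour from healthy PBS in experiment 2 (x axis) and of 17 mM from sham tumour in experiment 1 (y axis), which share no array. The members lie at the right edge between -1.57 (Dynap) and -2.44 (Dppa2), among other genes high in tumour. The sham arrays of both axes are those on whose high values the members were chosen, which favours their place on each axis.

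Across the 9 arrays, after centring each gene within its experiment, Pearson's r between pairs of members ran from 0.9791 (Xlr and Dynap) to 0.9983 (Ott and Prkg2) over 10 pairs. The points share the tumour and healthy arrays that chose the genes, so the likeness is a description. The genes whose pattern was most like the mean of the members were Plk4, the kinase of centriole duplication (r = 0.9993), the unstudied 1700012B09Rik and 4930503L19Rik, Bub1, a spindle checkpoint kinase, and Wtip. E2f8, a cell cycle transcription factor, Pbk, a mitotic kinase, Cdca8, a chromosomal passenger protein, Dbf4, an activator of the replication kinase Cdc7, and Tk1, a thymidine kinase, completed the closest 10, all with r of at least 0.998. Such likeness was common, since 147 of 11964 other genes had r of at least 0.99 and 1131 had r of at least 0.95. Without the 24 h array 5 of these 10 genes stayed among the closest 10. The closest gene to Dppa2 was Poglut2, to Ott Ckap2, to Xlr Kif20a, to Prkg2 Plk4 and to Dynap Anln.

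Plk4 itself read 4.21 in healthy PBS, 8.34 in sham tumour, 8.28 at 1.7 mM, 6.99 at 8.5 mM and 6.78 at 17 mM, and 4.04, 7.66, 5.81 at 24 h and 3.97 at 7 d in experiment 2. All 13 genes of a mitosis list were above the filter and all 13 rose in sham tumour, beside 28.6% of all genes. Their median level was 3.69 in healthy PBS, 8.76 in sham tumour and 8.76, 7.72 and 7.27 at rising dose. In experiment 2 it was 3.66, 8.18, 6.08 on the 24 h array and 3.71 on the 7 d array. At 17 mM 9 of the 13 fell, beside 10.6% of all genes, with a median of -1.59 against -2.12 for the members and -0.045 for all genes. The mitosis list was chosen with earlier results of these data known. Its healthy PBS median lay below the filter level in both experiments. Most of its genes thus passed the filter through arrays on which they were high. That favours a rise in sham tumour and a fall from it, so nothing is read from either count. Cenpe, a kinetochore motor, fell by 1.97 (SE 0.18, adjusted p = 0.0184), Bub1 fell by 1.74 (adjusted p = 0.0379), Prc1, a spindle midzone protein, fell by 1.74 (adjusted p = 0.019) and Kif11, a spindle motor, fell by 1.66 (adjusted p = 0.0482).

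Most germ cell genes stayed at low levels on every array. Of 21 germ cell genes listed, 18 were measured and 4 lay above the filter, and none of those 4 passed between sham tumour and healthy PBS. The summed level of the 18 was 61.3 in healthy PBS and 62.7 in sham tumour of experiment 1, 63.8 to 64.7 at the 3 doses, and 56.8 to 58.5 in experiment 2. Ddx4, the germ cell RNA helicase, stayed between 2.33 and 2.67 on all arrays and Dazl, a germ cell RNA-binding protein, between 2.86 and 3.23. Asz1, a germ cell protein of the piRNA pathway, moved most among them. It read 4.85 in healthy PBS, 4.71 in sham tumour and 6.13, 7.33 and 7.29 at rising dose. In experiment 2 it read 4.62, 3.39, 5.95 at 24 h and 4.44 at 7 d. It rose at 17 mM by 2.85 (SE 0.42, adjusted p = 0.0307), opposite to the members. Tex101 and Piwil2, both below the filter and not tested, moved less. Tex101 read 3.41 in healthy PBS, 3.96 in sham tumour and 4.02, 3.51 and 3.45 at rising dose. In experiment 2 it read 3.44 in healthy PBS and 3.85 in sham tumour. Piwil2 read 2.95 in healthy PBS and 3.56 in sham tumour, then 2.74 and 2.87 in experiment 2. Ddx4, Dazl, Tex101 and Piwil2 were picked for mention after their values were seen.

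Pluripotency genes were likewise mostly under the filter. Of 15 listed, 11 were measured and 2 lay above the filter, Dppa5a and Utf1, and neither passed at any dose. Their differences at 17 mM were 0.24 and -0.04. Dppa4, which binds Dppa2 in pluripotent cells and is mentioned for that reason, was below the filter at 3.20 in healthy PBS, 3.67 in sham tumour, 3.67, 3.29 and 3.42 at rising dose, and 3.21, 3.74, 3.11 and 3.34 in experiment 2. It lay between 3.11 and 3.74 throughout, higher in both sham tumours than in both healthy PBS arrays, and was not tested. Sox2, also below the filter and not tested, is named after its values were seen. It read 5.00 in healthy PBS, 3.46 in sham tumour and 3.64, 4.66 and 4.84 at rising dose. In experiment 2 it read 4.18, 2.78, 3.88 at 24 h and 4.69 at 7 d. Of 8 oocyte genes 2 were above the filter. Ooep, an oocyte protein also read in healthy bladder here, fell from 7.02 and 7.05 in healthy PBS to 5.43 and 5.35 in sham tumour (-1.64, adjusted p = 0.00289) and rose by 2.04 at 17 mM (adjusted p = 0.0159).

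Of 12 genes listed as relatives of Xlr, 5 were measured, Sycp3 counting here and among the germ cell genes, and Xlr4b alone was above the filter. Xlr4b read 5.07 in healthy PBS, 6.07 in sham tumour, 6.50, 5.94 and 5.88 at rising dose, and 4.72, 5.07, 4.93 at 24 h and 3.41 at 7 d, and its differences did not pass (0.68 for tumour, adjusted p = 0.0644). Xlr5c read 3.02 in healthy PBS, 4.33 in sham tumour, 4.45, 3.78 and 3.68 at rising dose, and 2.96, 3.83, 3.18 and 3.11 in experiment 2, below the filter on average and not tested. It was higher in both sham tumours than in both healthy PBS arrays.

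Of 21 other cancer-testis genes listed, 11 were measured and 2 were above the filter, and the Mage genes among them, all below the filter and not tested, lay between 2.62 and 4.09. Mageb3, named after its values were seen, read 3.39 in healthy PBS, 4.09 in sham tumour, 3.69, 3.40 and 3.18 at rising dose, and 2.93, 3.44, 2.84 and 2.62 in experiment 2, highest in the sham tumour of each. Tex15, a germ cell gene of transposon silencing, fell from 7.65 and 7.10 in healthy PBS to 4.08 and 3.86 in sham tumour (-3.40, adjusted p = 0.0024). It rose at 17 mM by 2.94 (adjusted p = 0.0159).

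Since Xlr was named for lymphocytes, lymphocyte genes were set beside it. Of 11 measured, 8 were above the filter, 4 rose in sham tumour with a median of 0.55 over the 8, and 1 fell at 17 mM, beside the 28.6% and 10.6% of all genes given above. That gene, Cd3g, a chain of the T cell receptor complex, read 3.89 in healthy PBS, 6.22 in sham tumour, 6.54, 6.17 and 5.12 at rising dose, and 2.98, 4.91, 3.72 at 24 h and 3.07 at 7 d. At 8.5 mM its difference from sham was 0.05 (adjusted p = 0.874) and that of Xlr was -1.71, and neither passed. Cd3g and Xlr were not tested against each other. The summed level of the 11 genes was 50.5 in healthy PBS, 59.1 in sham tumour, 59.2, 60.0 and 54.1 at rising dose, and 45.9 to 50.2 in experiment 2.

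Prkg2 belongs to a pathway in which nitric oxide or natriuretic peptides raise cGMP through guanylyl cyclases, the kinases Prkg1 and Prkg2 respond to it and phosphodiesterases degrade it. Of 21 measured genes 14 were above the filter, 5 rose and 5 fell in sham tumour, and 5 rose and 1 fell at 17 mM (median 0.13). Over all 11969 genes 3428 rose and 3424 fell in sham tumour, and 1875 rose and 1272 fell at 17 mM. Prkg1, the soluble kinase of smooth muscle, read 6.24 in healthy PBS, 4.94 in sham tumour, 4.94, 5.72 and 6.35 at rising dose, and 5.44, 4.23, 5.39 at 24 h and 5.16 at 7 d. Its difference was -1.25 in sham tumour (adjusted p = 0.00389) and 1.39 at 17 mM (SE 0.12, adjusted p = 0.0181), so that it fell and then rose, opposite in sign to Prkg2. Npr2, a receptor cyclase for C-type natriuretic peptide, rose at 17 mM by 2.19 (adjusted p = 0.0361), Pde9a, a cGMP phosphodiesterase, by 1.59 (adjusted p = 0.0168) and Gucy1b1, a subunit of the soluble cyclase, by 1.48 (adjusted p = 0.0321). The gene that fell was Npr1, the receptor cyclase for atrial natriuretic peptide, which rose in sham tumour by 1.40 (adjusted p = 0.00387), fell by 1.0 at 17 mM (adjusted p = 0.0269) and is named after its value was seen. Nppb, the B-type natriuretic peptide, also named after its values were seen, read 4.14 in healthy PBS, 8.11 in sham tumour, 7.12, 6.50 and 5.82 at rising dose, and 4.51, 7.40, 5.54 at 24 h and 4.37 at 7 d. It rose in sham tumour by 3.43 (adjusted p = 0.00548), with a difference of -2.02 at 17 mM that did not pass (adjusted p = 0.0517), the same signs as Prkg2.

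Markers of other cells moved across the same arrays. The urothelial list had a median of 11.08 in healthy PBS, 7.54 in sham tumour, 8.23, 9.87 and 10.25 at rising dose, and 10.71, 7.06, 10.11 at 24 h and 10.72 at 7 d (summed levels 81.1 to 118.9 and 73.1 to 116.3). It ran opposite to the members, with 11 of 11 genes lower in sham tumour and 11 of 11 higher at 17 and 8.5 mM. All 8 smooth muscle genes fell in sham tumour and rose at 17 mM. Over all 11969 genes, 3424 fell in sham tumour, 1875 rose at 17 mM and 1315 rose at 8.5 mM. Xist, the X-inactivation RNA of female cells, read 10.32 and 10.22 in healthy PBS, 9.15 and 8.97 in sham tumour, 9.26, 9.95 and 10.21 at rising dose, 10.06 at 24 h and 10.17 at 7 d. It fell in sham tumour (-1.21, adjusted p = 0.00404) and rose at 17 mM by 1.08 (adjusted p = 0.0215). The Y-linked genes measured, the rest of that list, were below the filter and not tested. Eif2s3y read 2.09 and 2.32 in healthy PBS and 3.45 and 3.18 in sham tumour. Kdm5d read 3.17 and 3.53, then 3.37 and 3.44, and Uty read 3.18 and 2.98, then 3.28 and 2.95.

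Several liver transcripts were highest on the arrays on which the members were intermediate. Of 7 measured liver genes 4 were above the filter. All 4 rose at 17 and 8.5 mM, where 1875 and 1315 of all 11969 genes rose. The summed level of the 7 was 31.5 in healthy PBS, 26.3 in sham tumour and 26.4, 41.6 and 49.1 at rising dose. In experiment 2 it was 30.4, 24.5, 45.2 at 24 h and 28.7 at 7 d. Alb, serum albumin, read 4.57 in healthy PBS, 4.04 in sham tumour, 3.87, 8.83 and 10.15 at rising dose, and 3.85, 3.78, 8.80 at 24 h and 3.52 at 7 d. Ttr, transthyretin, enters the same sum but was high in healthy bladder: it read 8.91 in healthy PBS, 4.84 in sham tumour, 5.23, 7.56 and 8.16 at rising dose, and 8.78, 4.48, 8.29 at 24 h and 8.35 at 7 d. Kap, a kidney protein, read 9.61 and 9.32 in healthy PBS, 7.53 at 24 h and 5.72 to 6.07 elsewhere. The part of the liver transcripts, the urothelial genes and the mitosis genes in the values of Dppa2, Ott, Xlr, Prkg2 and Dynap was not tested.

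**Figure D4:**
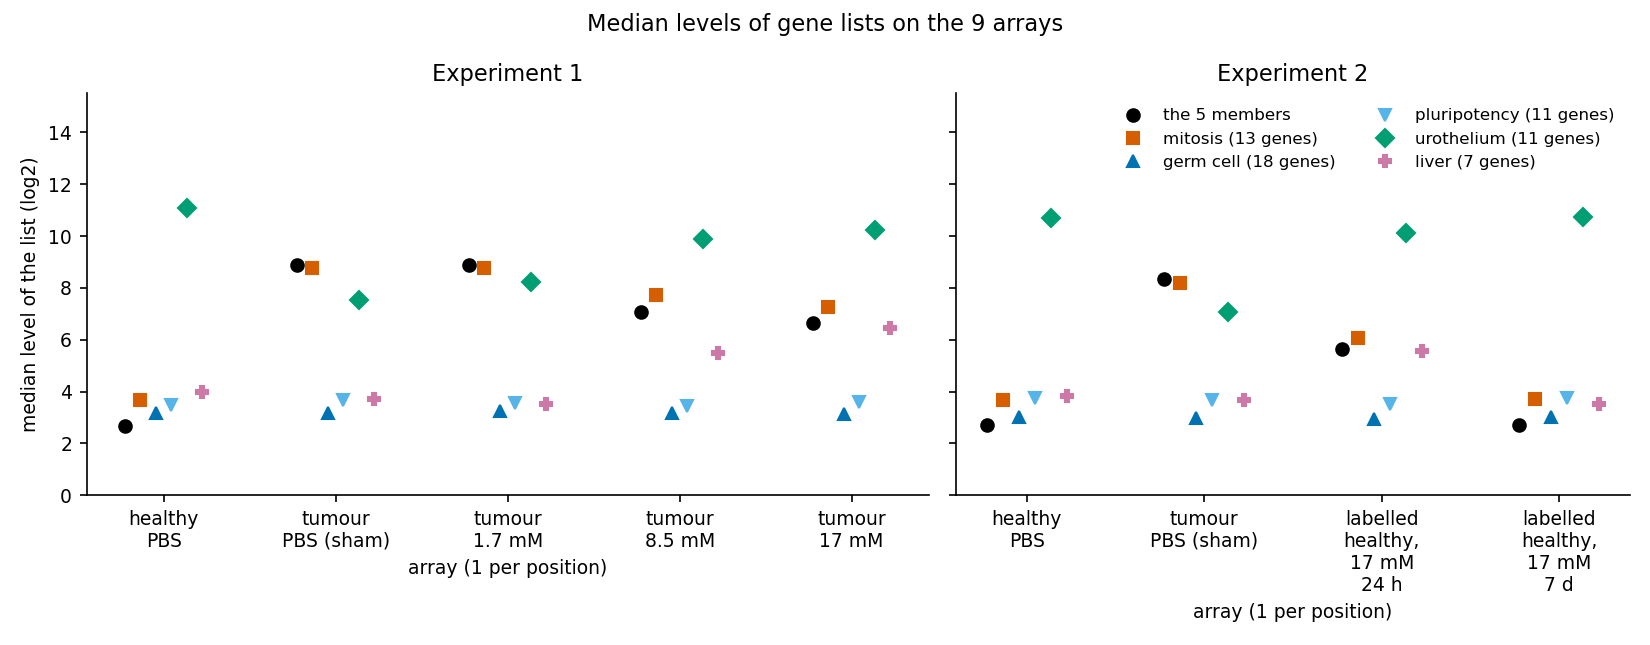
Median log2 level (y axis) of the 5 members and of the mitosis, germ cell, pluripotency, urothelium and liver lists on each of the 9 arrays (x axis), 1 point per list and array. The members and the mitosis genes are high and low on the same arrays, the urothelial genes run the other way, and the germ cell and pluripotency medians stay between 2.96 and 3.77.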

How the data were processed

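The deposited values are log2 intensities that the authors made by RMA (submitters' processing notes, which also name Transcriptome Analysis Console 4.0.1.36). RNA (100 ng) was labelled with a 3' IVT kit, per the labels. No genome build was given in the sources used here. The 45077 probe sets were joined to genes by the array's annotation (28898 named 1 gene, 551 several, 15588 none, 40 were controls), and the set with the highest mean stood for each of 17097 genes. Sorted values differed by 0.022 within and 0.329 between experiments, so the experiments had been normalized apart. The limma fit (lmFit, eBayes) used 7 group means with the experiment as a block over all 9 arrays, which left 1 residual and 2.23 prior degrees of freedom. The block comes from the experiment number in the labels; over the PBS groups, same-numbered deviations correlated at 0.708. Genes in the lowest 30% of mean level (under 4.16) were left out, p-values were adjusted by Benjamini-Hochberg over 11969 genes, and the threshold was 0.05. A share is the linear signal above healthy PBS divided by that of sham tumour in the same experiment.

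The members and gene lists were chosen with earlier results of these data known, so nothing is read from the number of genes called in a list. Named genes were the members with all their probe sets, the 10 most alike, and of each list up to 4 passing at 17 mM by size or, where none passed, the 2 with the highest mean; others are marked in the text. Alternatives were no block, joint quantile normalization, other filters, averaged probe sets, a variance trend and leaving out each PBS array. With no block the prior degrees of freedom were infinite, so every gene had the same spread and its calls follow the size of the difference. The fit was tested on simulated data. Software was R 4.3.3 (limma 3.58.1) and Python 3.11.15 (pandas 2.3.3, numpy 2.4.6, matplotlib 3.10.9).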

Additional observations from a re-analysis of the deposited data

How the results depend on the processing

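All fitted differences of the members kept their direction where they had been called, in every alternative run. The numbers of members called at 1.7 mM against sham, at 17 against 8.5 mM and at 7 d against healthy PBS were 0 in all of them, and at 17 mM against sham the number stayed between 3 and 5, with Dynap passing in 4 alternatives (adjusted p from 0.00551 to 0.0493). With no replicate block (the experiment term left out, 2 residual degrees of freedom), the 24 h array differed from healthy PBS for 5 members and from 7 d for 4, where the blocked fit called 0 in both. With all arrays quantile normalized together, 5 members were called in each of 8.5 mM against sham, 17 against 1.7 mM, 8.5 against 1.7 mM, 24 h against healthy PBS and 24 h against 7 d. Between 17 and 1.7 mM, 0 were called with no filter and 4 each with averaged probe sets and with a variance trend. For 24 h against healthy PBS, 2, 1 and 4 were called with the lowest 50% left out, averaged probe sets and a variance trend, and for 24 h against 7 d the variance trend called 1. Leaving out the lowest 50% removed Dppa2 and Xlr, so 3 members were called for 24 h against sham. Leaving out each PBS array, which needed the block dropped, gave 0 to 3 members at 17 against 1.7 mM, 4 to 5 for 24 h against healthy PBS and 4 to 5 for 24 h against 7 d. Counts over all genes also depended on the block. Without it they fell from 3147 to 1217 called at 17 mM against sham, and were likewise lower there with a PBS array left out. At 1.7 mM against sham and at 17 against 8.5 mM they rose from 0 without the block. Median shares of sham signal stayed within 19.6% to 21.0% at 17 mM and 24.6% to 28.0% at 8.5 mM. With 1 array per dose and unknown animals, the precision is limited by the number of arrays.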
